A study of Homo sapiens with 6 samples.

Results

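The cation-chloride cotransporters of the SLC12 family and the kinases that control them were followed in a SOX9 knockdown of cells labelled HepG2, an established human liver cancer cell line. The set held 9 genes (SLC12A1, SLC12A2, SLC12A3, SLC12A4, SLC12A7, SLC12A8, SLC12A9, WNK1 and STK39) of the 18574 genes named on the array. They were measured by 38 probe sets, taken wherever the deposited table gave exactly one of these symbols. The genes were put together because probe sets of SLC12A1 differed between knockdown and control. All member values of that comparison are therefore a description, and no p-value is given for them.

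Most SLC12 proteins carry chloride across the cell membrane together with sodium, potassium or both. SLC12A1 and SLC12A2 take up sodium, potassium and chloride and are blocked by loop diuretics, and SLC12A3 takes up sodium and chloride and is blocked by thiazides. SLC12A4 and SLC12A7 let potassium and chloride out. WNK kinases respond to chloride and osmotic stress and activate STK39 (also called SPAK) and OXSR1, which phosphorylate the carriers, switching uptake on and efflux off. SLC12A1 is known from the thick ascending limb of the kidney and SLC12A3 from the distal convoluted tubule, while SLC12A2, SLC12A4 and WNK1 are expressed in many cell types.

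RNA came from 3 samples labelled shSOX9, in which a viral short hairpin RNA targeted SOX9, and 3 control samples infected with an empty virus. The groups follow the sample titles and genotypes, while the free-text descriptions of all 6 samples speak of the empty virus. Per the labels, a knockdown clone and a control clone were built, so a difference between clones cannot be told apart from the knockdown. Both groups share the cell line label and the culture medium with serum, and nothing says that the samples of a group were separate cultures, so the p-values rest on a spread between arrays that may be purely technical. In bulk RNA, fewer cells of a kind and less RNA per cell cannot be told apart. Each sample was hybridised to 1 array.

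SOX9, the transcription factor targeted by the hairpin, read 6.91, 7.08 and 6.90 on the shSOX9 arrays, against 8.15, 7.99 and 7.67 on the control arrays, as log2 expression values of probe set 11758216_s_at. Its log2 difference was -0.97 (SE 0.13; limma adjusted p = 0.00114 over all genes), so 51.0% of the control signal was left. With its probe set of largest variance the difference was -0.81 (limma adjusted p = 0.0526; range over the alternatives 0.000351 to 0.0526). Hepatocyte plasma protein markers, which HepG2 cells are known to express, were low, with list means from 3.76 to 3.93 on shSOX9 arrays and from 3.63 to 3.89 on control arrays. Only 2 of 17 measured markers had a mean of at least 5. ALB averaged 3.37 ± 0.26 and 3.14 ± 0.44, AFP 2.61 ± 0.11 and 2.70 ± 0.14, APOA1 4.60 ± 0.09 and 4.81 ± 0.15, and SERPINA1 3.92 ± 0.39 and 3.88 ± 0.36 on shSOX9 and control arrays (SD, n = 3 each). Leukocyte markers had list means of 4.07 to 4.26 on shSOX9 arrays and 3.90 to 4.11 on control arrays, and endothelial markers 4.37 to 4.58 on shSOX9 arrays and 4.32 to 4.68 on control arrays. By limma RBP4 passed among the 17 hepatocyte markers (difference 1.26, adjusted p = 0.000689), CD68 among the 10 leukocyte markers (0.61, adjusted p = 0.0082) and 0 of 8 endothelial markers, of which 1 had an unadjusted p under 0.05. The part of these cell markers in the results was not tested. Hepatocyte markers thus go against the label. Median signals of all probe sets lay between 5.42 and 5.46 on shSOX9 arrays and between 5.44 and 5.48 on control arrays, and correlations lay at 0.992 to 0.996 for arrays of one group and 0.982 to 0.992 across the groups. On this log2 scale values under 5 are compressed by the authors' normalization, so differences there are not exact in size.

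The stretches just before the gene starts are shown for the 3 sodium-dependent carriers, because these close relatives differ in the breadth of tissues that use them and in how they moved here. Each covers the 250 bases before the start of the gene in the RefSeq annotation of GRCh38.p14, and all 3 genes lie on the plus strand. SLC12A1 is at chr15:48206052-48206301, SLC12A2 at chr5:128083516-128083765 and SLC12A3 at chr16:56864957-56865206. Capitals mark CpG dinucleotides.
SLC12A1: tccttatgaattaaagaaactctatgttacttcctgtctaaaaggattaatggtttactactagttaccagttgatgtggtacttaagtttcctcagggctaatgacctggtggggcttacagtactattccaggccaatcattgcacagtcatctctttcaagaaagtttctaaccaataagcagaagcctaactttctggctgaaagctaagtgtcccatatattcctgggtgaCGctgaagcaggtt
SLC12A2: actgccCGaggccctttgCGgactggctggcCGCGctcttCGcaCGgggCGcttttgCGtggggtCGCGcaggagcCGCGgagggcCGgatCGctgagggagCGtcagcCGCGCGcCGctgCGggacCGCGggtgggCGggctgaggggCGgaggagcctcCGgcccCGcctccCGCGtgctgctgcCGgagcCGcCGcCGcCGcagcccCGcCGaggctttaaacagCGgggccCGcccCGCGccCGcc
SLC12A3: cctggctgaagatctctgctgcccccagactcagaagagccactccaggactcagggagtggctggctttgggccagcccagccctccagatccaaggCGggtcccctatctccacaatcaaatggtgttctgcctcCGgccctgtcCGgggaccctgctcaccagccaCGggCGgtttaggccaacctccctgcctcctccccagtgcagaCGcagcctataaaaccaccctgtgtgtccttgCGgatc
The SLC12A1 stretch held 1 CpG and was 40.4% G and C. That of SLC12A2 held 40 CpGs at 79.6% G and C, and that of SLC12A3 held 7 at 62.8%. Of 35097 such windows in the annotation, 14.7% held as few CpGs as that of SLC12A1, and the median window held 11. CpG-rich starts are known as a mark of broadly expressed genes. Both strands were also searched for the SOX core letters AACAAT, found in 8.98% of all windows, and ACAAAG, found in 13.7%. Neither was found in the windows of SLC12A1, SLC12A2 or SLC12A3. The 9 members have 13 such windows, since some genes have several starts, and 3 of the 13 (23.1%) held a match, close to the 20.9% of all windows that held either. These were AACAAT for SLC12A8 and, read on the other strand, for SLC12A9, and ACAAAG for STK39. A match is a description of these letters and not a binding site.

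SLC12A1, the kidney sodium, potassium and chloride carrier, had the largest differences among the members, and 3 of its 4 probe sets read lower on every shSOX9 array than on any control array. Such a gap alone is common, since the groups did not overlap on 29.6% of all probe sets, in either direction. The probe set with the highest mean, 11728244_s_at, read 4.98, 4.87 and 5.29 on the shSOX9 arrays, against 6.83, 7.35 and 7.11 on the control arrays. The groups stood apart by more than the range within either. Its means were 5.05 ± 0.22 in shSOX9 and 7.09 ± 0.26 in control (SD, n = 3 each), a log2 difference of -2.05 that left 24.2% of the control signal. Probe set 11728243_a_at showed the same gap, with 4.22, 4.27 and 4.43 in shSOX9 and 6.17, 6.36 and 6.10 in control, a difference of -1.91. A smaller gap was seen on 11750832_a_at, which read 4.18, 4.42 and 4.01 in shSOX9 and 5.03, 5.10 and 5.06 in control, a difference of -0.86. Probe set 11752597_a_at did not separate the groups. It read 4.60, 4.71 and 4.71 in shSOX9 and 4.83, 4.57 and 4.51 in control, a difference of 0.04. Averaged over its 4 probe sets the gene differed by -1.19.

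**Figure D1:**
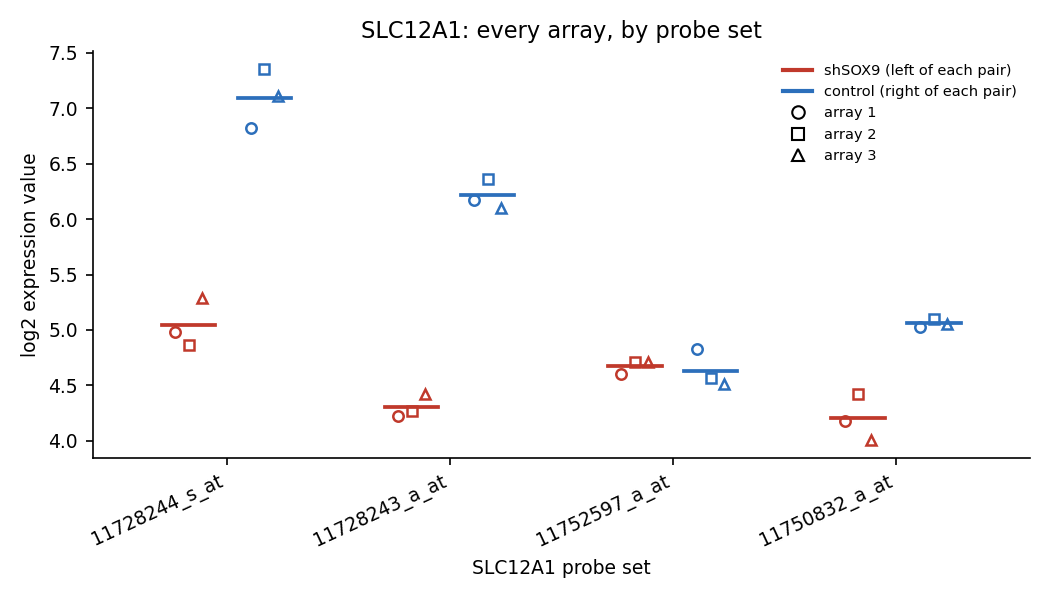
Log2 expression values of SLC12A1 on each array, by probe set, in order of mean signal. Symbols are single arrays (shSOX9 left and red, control right and blue) and bars are group means of 3 arrays; on 3 probe sets all shSOX9 arrays lie below all control arrays, and on 11752597_a_at the groups overlap.

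The 4 probe sets are aligned by the deposited table to overlapping stretches of the gene on chromosome 15, band q21.1, plus strand. No source used here gives the build of these positions, so they are not set against the RefSeq positions above. Probe sets 11728244_s_at and 11728243_a_at are aligned to positions 48498496 to 48596273, a span of 97778 bases. Probe set 11750832_a_at covers 48521226 to 48577427 and ends 18.8 kb before the end of that span. The one that did not separate the groups, 11752597_a_at, covers only 48499730 to 48529540 near the start and ends 66.7 kb before it. The difference was largest on the probe sets aligned to the whole gene and near 0 on the one confined to its first part. These probe sets also differed in signal. Control means were 7.09 for 11728244_s_at, 6.21 for 11728243_a_at, 5.06 for 11750832_a_at and 4.63 for 11752597_a_at. The last read under 5 in both groups, where differences are not exact in size. Position and signal level go together over these probe sets and cannot be told apart. Where the probes lie within a span is also not stated, and all 4 are annotated to the same pair of transcripts. All shSOX9 means but that of 11728244_s_at were under 5, where signals are compressed.

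**Figure D2:**
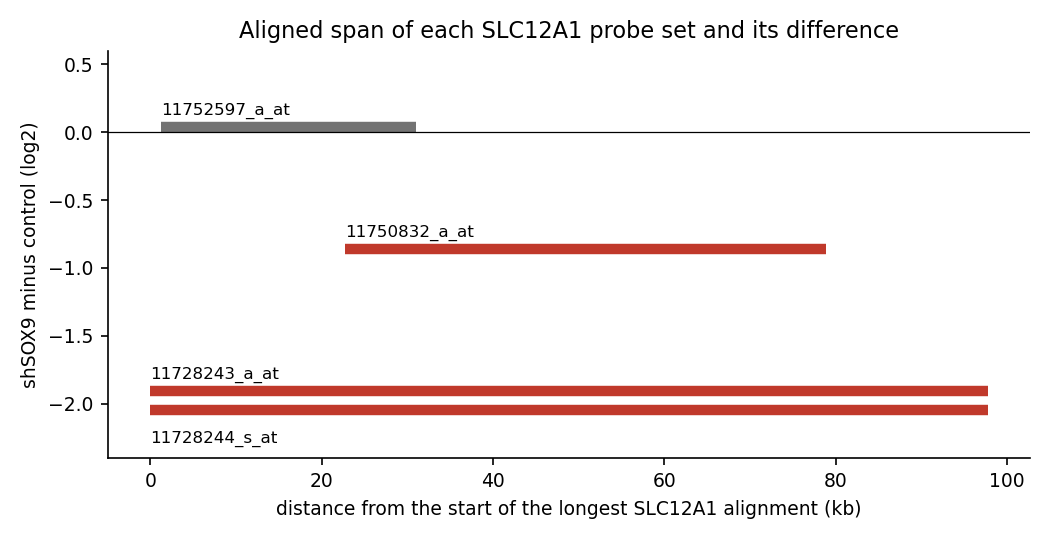
Span of the table's alignment of each SLC12A1 probe set, as distance in kb from the start of the longest alignment, against its log2 difference, shSOX9 minus control. Probe sets that span the whole gene lie at -2.05 and -1.91, the one in its middle at -0.86 and the one at its start at 0.04. The one at its start read under 5 in both groups.

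The signal of control transcripts gives a measure of how far labelling reached from the 3' end. The 3' minus 5' log2 signal of the GAPDH control probe sets was 0.42, 0.37 and 0.24 on the shSOX9 arrays and 0.04, 0.03 and 0.26 on the control arrays. That of beta-actin went the other way, with 2.29, 2.34 and 2.19 in shSOX9 and 2.56, 2.55 and 2.51 in control. The part of these measures in the disagreement of the SLC12A1 probe sets was not tested. A further probe set, 11762922_s_at, carries the symbols of SLC12A1, MYBPC3 and the mitochondrial COX3, is aligned to the mitochondrial genome and read 14.1 to 14.2 on every array. It was not counted as a member.

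SLC12A2, the widely expressed sodium, potassium and chloride carrier, read slightly higher in shSOX9 on all 3 probe sets. Probe set 11724133_s_at read 7.70, 7.55 and 7.89 in shSOX9 and 7.37, 7.51 and 7.59 in control, a difference of 0.23 with overlapping groups. On 11724134_a_at the arrays read 6.59, 6.69 and 6.71 in shSOX9 and 6.38, 6.34 and 6.54 in control, a difference of 0.24 without overlap. The lowest shSOX9 array lay close above the highest control array. Probe set 11745260_x_at differed by 0.63, but its arrays ranged from 5.25 to 6.06 in shSOX9 and from 4.72 to 5.38 in control, so the groups overlapped.

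SLC12A3, the thiazide-sensitive carrier, read under 5 on both of its probe sets. On 11725270_at it read 4.03, 4.18 and 4.01 in shSOX9 and 4.55, 4.38 and 4.44 in control, a difference of -0.39 without overlap. Probe set 11725269_at read 3.50 on all 3 shSOX9 arrays and 3.66, 3.39 and 3.51 in control, a difference of -0.02. The groups of this gene therefore stand apart on 1 of its 2 probe sets, where they do so on 29.6% of all probe sets. The other held the identical value of 3.497 on every shSOX9 array, a low reading that limits what it can show.

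The potassium and chloride efflux carriers stayed close to the control. SLC12A4 was measured by 13 probe sets, whose differences lay between -0.15 and 0.29 with a median of 0.11. The one with the highest mean, 11763528_s_at, read 7.95, 7.68 and 7.60 in shSOX9 and 7.32, 7.47 and 7.56 in control, a difference of 0.29, with the lowest shSOX9 array close above the highest control array. Of the 13 probe sets, 3 were higher and 1 was lower in shSOX9 without overlap, and 9 overlapped. The share without overlap is close to the 29.6% of all probe sets, and the direction was not shared. SLC12A7 overlapped on both probe sets. Probe set 11757977_s_at read 8.75, 8.73 and 8.46 in shSOX9 and 8.61, 8.65 and 9.03 in control, a difference of -0.11, and 11753256_a_at differed by 0.01.

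The relatives SLC12A8 and SLC12A9, whose roles in ion transport are less settled, overlapped between groups on all of their probe sets. SLC12A8 differed by 0.04 on 11756825_a_at, which read 5.87, 6.11 and 5.96 in shSOX9 and 5.97, 5.88 and 5.98 in control, and by 0.42 on 11726809_x_at, which read 5.17, 5.15 and 4.85 in shSOX9 and 4.90, 4.27 and 4.74 in control. SLC12A9 read 7.94, 7.81 and 7.74 in shSOX9 and 7.56, 7.24 and 7.74 in control on 11754321_x_at, a difference of 0.31. Control 3 reached the lowest shSOX9 array there, while the other controls lay below all of them. The remaining probe sets of SLC12A9 differed by 0.26 and 0.05.

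WNK1, the kinase at the head of the cascade, had a lower shSOX9 mean on 3 of 5 probe sets, and on 2 of these the groups did not overlap. The one with the highest mean, 11743279_x_at, read 8.86, 8.89 and 8.86 in shSOX9 and 9.40, 9.58 and 9.27 in control, a difference of -0.55. Probe set 11743278_at read 7.88, 7.74 and 7.99 in shSOX9 and 8.42, 8.58 and 8.19 in control, a difference of -0.53. In both the groups did not overlap, and control 3 was the control nearest to the shSOX9 arrays. Over all probe sets, 14.8% were lower in shSOX9 without overlap. Probe set 11743280_a_at read 8.89, 8.67 and 8.72 in shSOX9 and 8.87, 9.03 and 9.17 in control, a difference of -0.27 with overlap. On 11743281_a_at the arrays read 8.47, 7.66 and 8.05 in shSOX9 and 7.78, 7.74 and 8.31 in control, a difference of 0.11 with wide overlap. These 4 probe sets share an alignment to positions 862088 to 1020616 of chromosome 12, plus strand, so the table does not say which transcripts each one follows. The last, 11737175_at, aligned within that span to positions 976542 to 979151, read 4.01 to 4.33 in shSOX9 and 3.90 to 4.28 in control.

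STK39, the kinase that WNK1 activates and that phosphorylates the carriers, was level on its brightest probe set. On 11755400_s_at it read 7.36, 7.34 and 7.40 in shSOX9 and 7.40, 7.37 and 7.37 in control, a difference of -0.01. Probe set 11717955_a_at read 4.74, 4.93 and 4.80 in shSOX9 and 5.28, 5.10 and 4.99 in control, a difference of -0.30 without overlap. The remaining probe sets, 11717956_s_at and 11762535_at, differed by -0.21 and 0.09 and overlapped. The groups thus stood apart on 1 of 4 probe sets, where they did so on 29.6% of all probe sets.

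**Figure D3:**
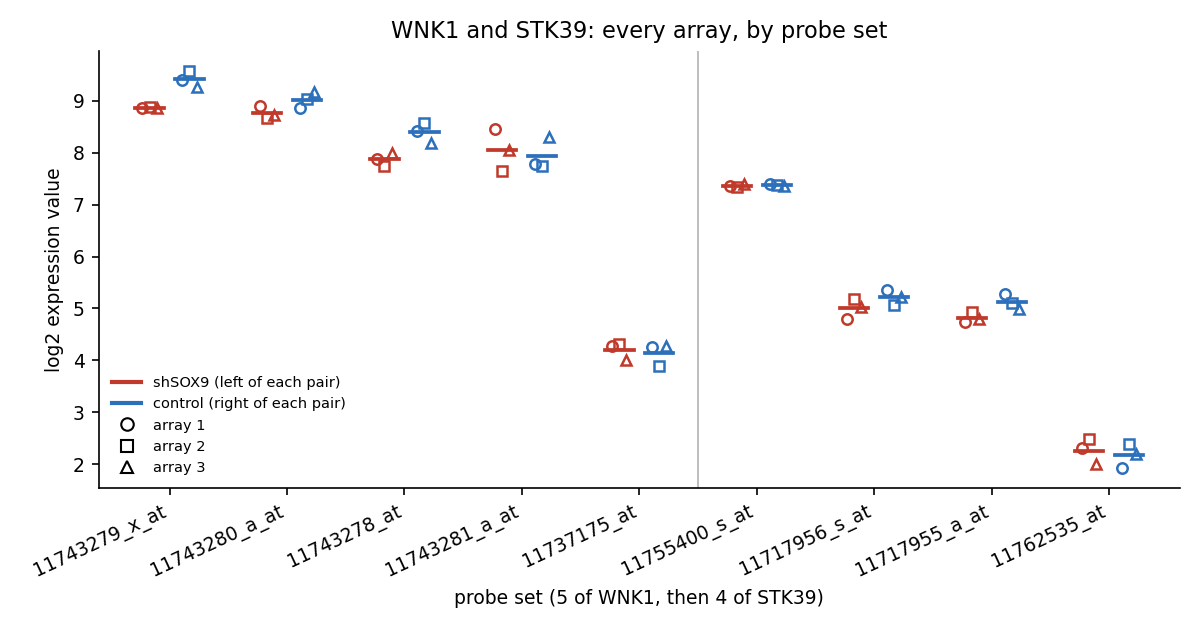
Log2 expression values of the 5 WNK1 and 4 STK39 probe sets on each array. Symbols are single arrays (shSOX9 left and red, control right and blue) and bars are group means of 3 arrays; 11743279_x_at and 11743278_at of WNK1 and 11717955_a_at of STK39 have all shSOX9 arrays below all control arrays.

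Over all 38 member probe sets, 15 had a lower and 23 a higher mean in shSOX9, and the median difference was 0.04, beside 0.01 over all 49293 probe sets. The groups did not overlap for 12 of them, where 29.6% of all probe sets did not overlap. These were 8 that were lower (21.1%), where 14.8% of all probe sets were lower without overlap, and 4 that were higher (10.5%), where 14.8% were higher without overlap. Of the 8 lower ones, 3 belong to SLC12A1, 2 to WNK1 and 1 each to SLC12A3, SLC12A4 and STK39. The 4 higher ones belong to SLC12A2 (1) and SLC12A4 (3). A difference of at least 2-fold was seen on 2 probe sets (5.26%), both of SLC12A1, where 1.37% of all probe sets reached it. The set was chosen because SLC12A1 probe sets differed, so shares that include them say nothing about the family. Without SLC12A1 the differences ran from -0.55 to 0.63, and of 34 probe sets 5 were lower and 4 higher without overlap.

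**Figure D4:**
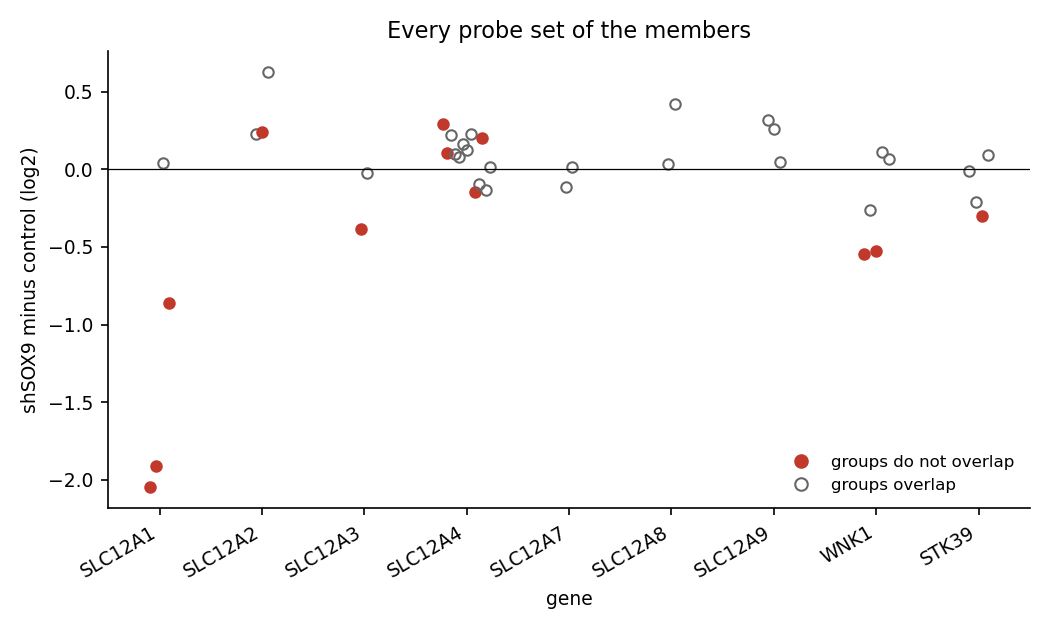
Log2 difference, shSOX9 minus control, of every probe set of the 9 members, ordered within a gene by falling mean signal. Filled points are probe sets whose groups do not overlap. Probe sets of SLC12A1 reach -2.05, while those of the other genes, filled or open, lie between -0.55 and 0.63.

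Genes of the same pathways that were not members were taken from the fit over all genes, with 1 probe set for each gene, the one with the highest mean. In that fit 16.8% of genes passed at a limma adjusted p under 0.05. In shSOX9 8.41% of genes were higher and 8.35% lower. Over 6 lists with 104 measured genes, 13 passed (12.5%), 7 higher and 6 lower, and the median difference was 0.03, as over all genes. The count was 8 without shSOX9 replicate 2 and 9 without control 1.

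Of 15 measured genes of the WNK cascade and its SLC12 relatives, 2 fell and 1 rose, with a median difference of -0.06. The number that fell was 1 without shSOX9 replicate 1, without shSOX9 replicate 2, without control 1 and without control 2, and 4 with array weights. KLHL3, the adaptor that brings WNK kinases to the CUL3 ubiquitin ligase, read 4.57, 4.47 and 4.15 in shSOX9 and 4.96, 5.06 and 5.09 in control, a log2 difference of -0.64 (SE 0.12; limma adjusted p = 0.00571). All 3 shSOX9 arrays lay below all controls, but its 5 probe sets ranged from -0.64 to 0.01, and their mean differed by -0.24 (limma adjusted p = 0.146; range over the alternatives 0.00386 to 0.146). The mean of KLHL3 over all arrays was under 5, so the filter at a mean of 5 left it out. CUL3, the scaffold of that ligase, read 9.04, 9.09 and 9.17 in shSOX9 and 8.76, 8.63 and 8.62 in control and rose by 0.43 (SE 0.09; limma adjusted p = 0.0114). With its probe set of largest variance the rise was 0.48 (limma adjusted p = 0.0991; range over the alternatives 0.00421 to 0.0991). NEDD4, a ubiquitin ligase, read 5.82, 5.86 and 6.06 in shSOX9 and 6.18, 6.43 and 6.25 in control, a difference of -0.38 (SE 0.11; limma adjusted p = 0.0416). That call was lost under 9 of 14 alternatives, among them leaving out any one array but shSOX9 replicate 3, and the adjusted p ranged from 0.0229 to 0.603.

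The other 12 did not pass. KLHL2, the relative of KLHL3, read 6.40, 6.46 and 6.88 in shSOX9 and 6.97, 7.41 and 6.90 in control, a difference of -0.51 (SE 0.16; limma adjusted p = 0.0602). It passed under 6 of 14 alternatives, with adjusted p-values from 0.0209 to 0.213. SGK1, a kinase induced by aldosterone and glucocorticoids, read 10.34, 10.55 and 10.54 in shSOX9 and 10.95, 10.82 and 10.59 in control, a difference of -0.31 (limma adjusted p = 0.110). Its adjusted p was 0.0368 without control 3, which lay next to the shSOX9 arrays, and ranged from 0.0320 to 0.350. OXSR1, the close relative of STK39, read 8.41, 8.55 and 8.48 in shSOX9 and 8.70, 8.74 and 8.55 in control, a difference of -0.18 (limma adjusted p = 0.262). CAB39, a scaffold that activates STK39 and OXSR1, read 8.67, 8.72 and 8.69 in shSOX9 and 8.96, 8.96 and 8.74 in control, a difference of -0.20 (limma adjusted p = 0.232). In both, control 3 was again the control nearest to the shSOX9 arrays. With the probe set of largest variance OXSR1 differed by -0.44 (limma adjusted p = 0.106; range over the alternatives 0.0980 to 0.555) and CAB39 by -0.66 (0.0842; range 0.0825 to 0.469). SORL1, a sorting receptor, differed by -0.21 (adjusted p = 0.275 by limma; 0.0189 for the mean of its probe sets; range over the alternatives 0.0189 to 0.543). The carrier SLC12A5 differed by 0.02, the kinases WNK2, WNK3 and WNK4 by -0.04, 0.20 and 0.21, NEDD4L by 0.03 and CAB39L by 0.04, with limma adjusted p-values from 0.347 to 0.951. CAB39L turned to -0.37 with its probe set of largest variance (limma adjusted p = 0.0687; range over the alternatives 0.0687 to 0.932). SLC12A5, WNK3, WNK4 and CAB39L read under 5 in both groups.

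**Figure D5:**
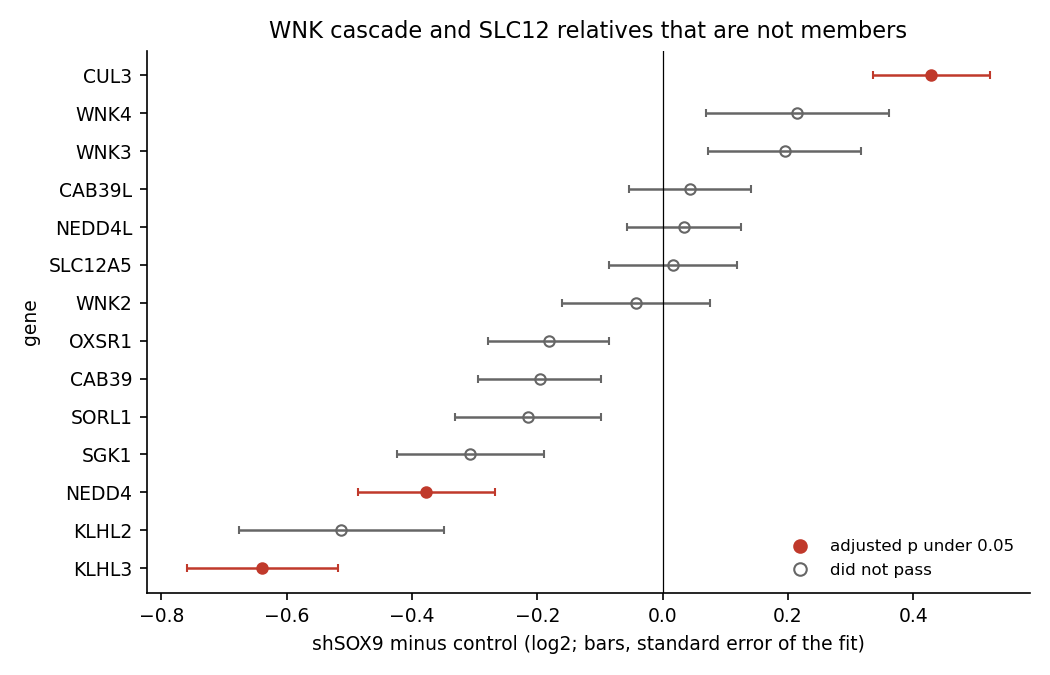
Log2 difference, shSOX9 minus control, of 14 of the 15 measured genes of the WNK cascade and SLC12 relatives that were not members, with the standard error of the limma fit over all genes (3 arrays a group). Filled points passed at an adjusted p under 0.05: CUL3 at 0.43, NEDD4 at -0.38 and KLHL3 at -0.64.

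Channels, carriers and pumps that work beside SLC12A1 and SLC12A3 in the kidney tubule had 1 of 22 that fell and 0 that rose (3 of the 22 had an unadjusted limma p under 0.05) and a median of 0.01. SCNN1A, the alpha subunit of the epithelial sodium channel, read 6.11, 5.75 and 5.82 in shSOX9 and 6.66, 6.50 and 6.71 in control, a log2 difference of -0.73 (SE 0.12; limma adjusted p = 0.00286), although its other probe set differed by -0.08. CLCN5, a chloride and proton exchanger, differed by 0.32 (limma adjusted p = 0.106), and passed without control 3 (0.46; limma adjusted p = 0.0129) and with array weights, with adjusted p-values from 0.0129 to 0.451. AQP3 and SLC4A4 were picked out after their values were seen. The water and glycerol channel AQP3 differed by -0.21 (limma adjusted p = 0.146) and passed with its probe set of largest variance (-0.60; limma adjusted p = 0.0178) and as the mean of its probe sets, with adjusted p-values from 0.0178 to 0.409. The sodium bicarbonate carrier SLC4A4 differed by -0.25 and passed without control 2 (limma adjusted p = 0.0379; range over the alternatives 0.0379 to 0.760). Only 10 of these 22 genes had a mean of at least 5.

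Among 11 measured subunits and regulators of the sodium and potassium pump, which builds the sodium gradient that SLC12A1, SLC12A2 and SLC12A3 use, 1 fell and 1 rose, with a median of 0.07. The beta subunit ATP1B3 read 12.60, 12.60 and 12.70 in shSOX9 and 13.40, 13.37 and 13.39 in control, a log2 difference of -0.75 (SE 0.09; limma adjusted p = 0.000619). The arrays of each group lay close together, and the call was kept under all 14 alternatives. FXYD5, a small regulator of the pump, differed by 0.37 (SE 0.11; limma adjusted p = 0.0433). This call was lost on leaving out any array but shSOX9 replicate 3, and its adjusted p ranged from 0.0192 to 0.262.

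Of 26 genes of cell volume and the osmotic response, 4 rose and 2 fell, with a median of 0.06. Without shSOX9 replicate 2 the counts were 2 and 1, without control 1 they were 2 and 2, and without shSOX9 replicate 3 they were 3 and 1. NFAT5, the transcription factor of the response to high salt, read 9.77, 9.68 and 9.74 in shSOX9 and 10.25, 10.32 and 10.07 in control, a log2 difference of -0.48 (SE 0.10; limma adjusted p = 0.00916). Its 4 probe sets ran from -0.49 to 0.02, and their mean did not pass (-0.25; limma adjusted p = 0.178; range over the alternatives 0.00228 to 0.178). HSPA4L, a chaperone induced by osmotic stress, rose by 0.69 (SE 0.12; limma adjusted p = 0.00387), with arrays between 7.98 and 8.32 in shSOX9 and between 7.33 and 7.55 in control. The 3 probe sets of HSPA4L ran from 0.25 to 0.69. Of the volume-regulated anion channel subunits, LRRC8E rose by 0.55 (SE 0.11; limma adjusted p = 0.00767) and LRRC8B changed by -0.45 (SE 0.10; limma adjusted p = 0.0143). The LRRC8B call was lost with its probe set of largest variance, without shSOX9 replicate 2 (limma adjusted p = 0.0556) and without shSOX9 replicate 3 (0.0520), and its adjusted p ranged from 0.00754 to 0.263. The 3 probe sets of LRRC8B ran from -0.45 to -0.09. The bicarbonate carriers SLC4A2 and SLC4A7 differed by 0.44 and 0.47 (limma adjusted p = 0.0357 and 0.04996). Each of these 2 calls was lost on leaving out any one of 4 arrays, with adjusted p-values from 0.0130 to 0.129 for SLC4A2 and from 0.00206 to 0.151 for SLC4A7 over the alternatives. The 3 probe sets of SLC4A2 ran from 0.003 to 0.53. SLC4A7 differed by 1.06 with its probe set of largest variance (limma adjusted p = 0.0140) and by 0.77 as the mean of its probe sets (0.00206).

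Markers of the thick ascending limb and distal tubule, the kidney segments of SLC12A1 and SLC12A3, had 0 of 18 that passed by limma, and 0 had an unadjusted p under 0.05. Their list means lay between 4.25 and 4.34 on shSOX9 arrays and between 4.17 and 4.34 on control arrays, and 7 of 18 had a mean of at least 5. The smallest adjusted p was that of KNG1 (difference -0.16; limma adjusted p = 0.425), followed by PVALB (0.14; limma adjusted p = 0.514), and both read near 3. Of 18 transcription factors of the nephron, 1 rose and 0 fell, and 2 had an unadjusted limma p under 0.05. LHX1 read 5.09, 5.14 and 5.11 in shSOX9 and 4.05, 4.39 and 4.54 in control, a rise of 0.79 (SE 0.13; limma adjusted p = 0.00261), but its 3 probe sets ran from -0.26 to 0.79 and their mean differed by 0.17 (limma adjusted p = 0.329; range over the alternatives 0.000819 to 0.329). The mean of LHX1 over all arrays was under 5, so the filter at a mean of 5 left it out. SIM1 differed by 0.24 (limma adjusted p = 0.144) and read 3.09 ± 0.10 in shSOX9 and 2.85 ± 0.10 in control (SD, n = 3 each).

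Of the genes next to SLC12A1 on chromosome 15, 1 passed the test. CTXN2, which precedes it in the RefSeq annotation, read 4.02, 3.92 and 3.62 in shSOX9 and 3.87, 3.69 and 4.08 in control, a difference of -0.03 (limma adjusted p = 0.929). DUT, which follows it and encodes the enzyme that removes dUTP, read 10.45, 10.47 and 10.50 in shSOX9 and 11.09, 10.90 and 10.99 in control, a difference of -0.52 (SE 0.09; limma adjusted p = 0.00465). Its 4 probe sets differed by -0.52 to -0.20, and with the one of largest variance the gene did not pass (limma adjusted p = 0.415; range over the alternatives 0.000630 to 0.415). The table aligns DUT to positions 48623622 to 48635570, apart from the span of SLC12A1.

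The genes whose pattern over the 6 arrays was nearest to that of SLC12A1 were found by the root mean square difference of log2 values, each gene centred on its own mean. The nearest of 18573 genes was AMDHD1, an enzyme of histidine breakdown, at 0.18, with 5.61, 5.23 and 5.43 in shSOX9 and 7.03, 7.44 and 7.34 in control. It was followed by ZMAT1 at 0.20, the asparagine synthetase ASNS, the glucocorticoid-induced factor TSC22D3 and ETNPPL, an enzyme of phosphoethanolamine breakdown, each at 0.22. Their log2 differences lay between -2.36 and -1.69, and the median distance over all genes was 1.07. The measure follows the gap between groups first, so no test is given for genes chosen by it.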

How the data were processed

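RNA of 3 shSOX9 and 3 control samples was measured on expression arrays. The deposited log2 values of 49372 probe sets were used, 79 of them control sets, in 6 value columns; the series matrix held identical values. RMA and affy are the tools that the submitters' processing notes credit to the authors. Their versions and the array design are not stated there. RMA equalises the distributions of all arrays and compresses low signals. Genes were named through Entrez numbers (46035 probe sets) or the table's symbol (205) with RefSeq of GRCh38.p14; SGK3, FXYD6 and VTN, on probe sets with several genes, were left out.

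The members, gene lists and tests were chosen with earlier results of these data known. Named were SOX9, the members, all cascade genes but 1 that is not reported here, up to 6 passing genes of each further list (or the leading 2 by p where under 2 passed), ALB, AFP, APOA1, SERPINA1, the neighbours of SLC12A1 and the 5 genes nearest in pattern. Group differences are shSOX9 minus control. Genes were tested with limma 3.58.1 in R 4.3.3 (lmFit, eBayes, two-sided, Benjamini-Hochberg over 18574 genes, threshold 0.05), and the procedure was tested on simulated data. Tables and plots used Python 3.11.15, pandas 2.3.3 and matplotlib 3.10.9. Suffixes _s_at and _x_at mark probe sets that can match further transcripts, as 13 of the 38 may. The number of arrays limits the precision. Alternatives were a filter at a mean of 5, quantile normalization, median centring, the series matrix, trended variances, array weights, a replicate block, other probe set rules and leaving out each array; the series matrix, being identical, is not among the 14 counted in the text.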

Additional observations from a re-analysis of the deposited data

How the results depend on the processing

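The series matrix values are identical, and a replicate block leaves a group difference as it is, so neither is counted as a check of the members. Of the 306 other recomputed member values, 304 moved by less than 1 SD between arrays. The exceptions were SLC12A1, which changed by -1.19 as the mean of its probe sets against -2.05 on its leading one, and STK39 on 11755400_s_at under quantile normalization, at 0.02 against -0.01. With groups of this size, leaving out 1 array cannot move a difference by 1 SD. Median centring shifts every probe set of an array alike, here by less than the smallest SD. For these alternatives the count was fixed in advance and is no check of the members. Leaving out single arrays gave -2.18 to -1.92 for SLC12A1, and 13 to 20 of the 38 member probe sets with a lower shSOX9 mean against 15. All genes passing numbered 3114, and 1758 to 3563 on leaving out an array; 6220 probe sets passed, and 2508 (without shSOX9 replicate 1) to 8757 (without control 3). Of the 104 genes of the 6 lists, 13 passed, and 8 to 12 on leaving out an array. With the replicate number as a block, 8 of these and 3343 probe sets passed; the calls of CUL3, NEDD4, FXYD5, SLC4A2 and SLC4A7 were lost, with limma adjusted p-values from 0.0551 to 0.113. Same-numbered samples did not deviate together (correlations -0.35, -0.45 and -0.56), so the numbers were not taken to pair them. Positive correlations were seen for some arrays of different numbers, shSOX9 3 with control 2 at 0.68, shSOX9 1 with control 3 at 0.55 and shSOX9 2 with control 1 at 0.41. Deviations were taken from the group mean and cancel out within a group, so negative and positive correlations bring each other with them. These correlations therefore cannot show whether arrays of different numbers vary together, and this was not tested. Over 39 genes outside the members, the series matrix left out, 36 of 531 recomputed values lost a call, 14 gained one and 0 of the called values reversed. Where an alternative ended or gave a call, the cause was not tested. Values under 5 limit what could be seen in SLC12A3, in KLHL3, in LHX1 and in the markers of kidney and liver.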
